A study of Mus musculus with 12 samples.

Results

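Collagen transcripts were followed in 12 mouse skin RNA-seq libraries, in whole skin and in epidermis, with and without deletion of Adam17. The members were all genes whose symbol is Col, a number, the letter a and a number, such as Col1a1. Col7a1 and Col17a1, pseudogenes and antisense genes were left out, which gave 42 genes of 47643 in the tables. All mice were C57BL/6 and 10 weeks old. The 4 groups of 3 libraries were Skin WT, Skin Adam17 KO, Epidermis WT and Epidermis Adam17 KO, shortened here to Skin KO and Epidermis KO. The conditional knockout (cKO) combined Sox9-Cre with floxed ADAM17 alleles (ADAM17fl/fl), so deletion is limited to cells that have expressed Sox9 or descend from them, in skin mainly the hair follicle lineage. Adam17 codes for a membrane protease that sheds EGFR ligands and TNF. The labels name no Cre or flox allele for the wild type mice, and they do not say whether libraries of a group came from different mice. P values here therefore reflect the spread among these libraries alone, and that spread may be technical.

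Collagens are triple-helical proteins of the extracellular matrix. Fibrillar collagens (types I, III and V in dermis) form the banded fibrils that give skin its tensile strength, and fibril-associated collagens coat or bridge them. Type IV collagens polymerise into the sheet of the basement membrane, under the epidermis and around vessels, nerves, fat and muscle cells. Type VI forms beaded microfilaments between both systems. Dermal fibroblasts make most fibrillar collagen, while keratinocytes make part of the basement membrane and some transmembrane and fibril-associated collagens.

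Library totals lay between 12208522 and 16743144 expected counts, so 3 counts correspond to 0.179 to 0.246 CPM, counts scaled to a common library total. Levels are CPM after trimmed-mean (TMM) scaling, listed in replicate order. Log2 fold changes set KO against WT and carry their standard error (SE). Adjusted p is edgeR's quasi-likelihood p after the Benjamini-Hochberg procedure across the tested genes, called under 0.05. Adam17 stood at 67.5 to 110.1 CPM of total counts in the WT libraries and at 39.6 to 59.4 in the KO libraries, without overlap in either tissue. Y-linked transcripts had 0 reads in all 6 WT libraries and in Skin KO 2. The other 5 KO libraries had between 213 and 1781 such reads. In epidermis the presence of these reads and genotype therefore cannot be told apart. Xist, a transcript of female cells, had 660 to 3222 reads in the WT libraries and 0 in replicate 1 of either KO group. Skin KO 2 had 430. Both kinds of reads occurred in Skin KO 3 (319 of Xist) and in replicates 2 and 3 of Epidermis KO (2511 and 2050). By these reads sex was not balanced between genotypes, and why some libraries held both was not tested. Skin KO 3 stood apart from the other Skin KO libraries in its fibrillar collagens, and results that rest on it are given with and without it.

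**Figure D1:**
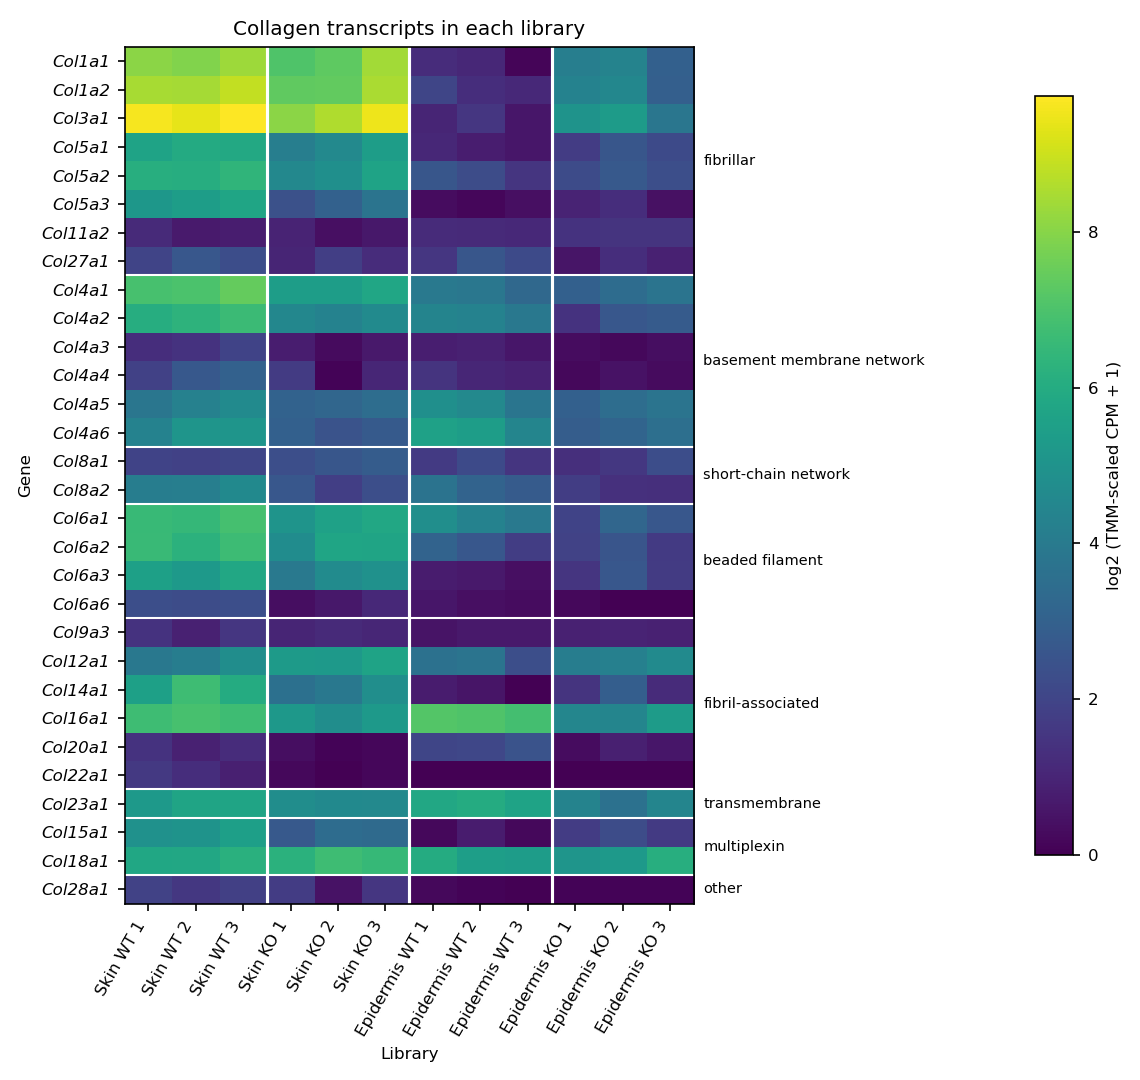
Levels of the 30 collagens tested, as log2 (TMM-scaled CPM + 1), in each of the 12 libraries (columns) with genes (rows) grouped by structural class. The fibrillar genes Col1a1, Col1a2 and Col3a1 are brightest in skin and dark in Epidermis WT, while Col16a1 is bright in both WT groups and dimmer in both KO groups.

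Wild type skin and wild type epidermis used different collagens. Per length (TPM), Col3a1, which codes for the single chain of type III collagen, ranked first in Skin WT at 215, 245 and 314 TPM, followed by the type I chains Col1a2 and Col1a1. In Epidermis WT the same gene was listed at only 0.290, 0.930 and 0.0800 TPM. The first rank there belonged to Col16a1 (ENSMUSG00000040690.15, chromosome 4, 130047840 to 130099283, plus strand), a fibril-associated collagen, at 61.6, 68.8 and 67.5 TPM. Col16a1 made up 49.1% to 65.7% of all collagen TPM in the Epidermis WT libraries and 6.12% to 9.35% in Skin WT. Col1a1, Col1a2 and Col3a1 together made up 0.652% to 1.11% in Epidermis WT and 53.6% to 57.4% in Skin WT. In Epidermis WT they rest on 34, 73 and 47 reads over the group, with 1 read of Col1a1 in Epidermis WT 3, so that share is imprecise.

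Between the WT tissues, 21 of the 30 collagens that passed the expression filter differed, 1 higher and 20 lower in epidermis, where 42.9% of all genes tested were called (17.5% higher and 25.3% lower). The median log2 difference of the 30 was -2.24, against -0.07 over all genes. Skin and epidermis were separated without overlap for 22 of the 30, and for 56.0% of all genes. A chain that is abundant in 1 group only can pass the filter through that group, so counts over the members that passed are descriptions. Col3a1 had the largest fitted difference (log2 -9.34, SE 0.44, adjusted p = 9.07e-06). Among type VI chains Col6a3, which completes the trimer, was furthest from skin (log2 -6.42, SE 0.29, adjusted p = 8.66e-06). Col20a1, a fibril-associated collagen, was the member higher in epidermis, at 3.15, 3.20 and 4.63 CPM against 1.68, 0.871 and 1.34 in skin (log2 1.501, SE 0.33, adjusted p = 0.00913). The groups did not overlap in CPM, but did per length, at 0.780, 1.38 and 1.60 TPM in epidermis and 1.16, 0.340 and 0.830 in skin. The 9 members not called included Col16a1, the transmembrane collagen Col23a1, the X-linked type IV chains Col4a5 and Col4a6, and Col18a1, a basement membrane collagen whose cleavage yields endostatin. For Col16a1 the log2 difference was 0.24 with a 95% interval from -0.03 to 0.51, and for Col23a1 0.30, from -0.04 to 0.63. Col22a1, a fibril-associated collagen of tissue junctions such as those between muscle and tendon, had 0 reads in Epidermis WT and 72 in Skin WT, at least 21.6-fold lower over the group. Calls near the threshold moved with single libraries. Those of Col9a3, Col4a3 and Col8a2 were lost without 1 or more of Skin WT 3 and the Epidermis WT libraries (adjusted p between 0.0524 and 0.103). Col12a1 (adjusted p = 0.0786) was called without Skin WT 1 (log2 -1.17, adjusted p = 0.0411).

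**Figure D2:**
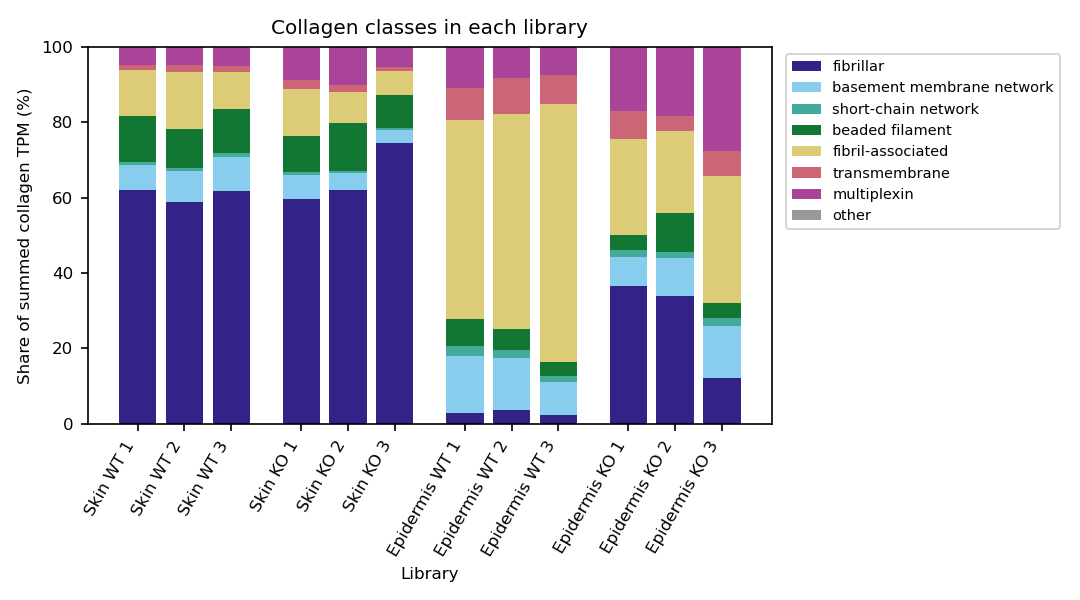
Share of the summed collagen TPM (vertical axis, percent) held by each structural class in each of the 12 libraries (bars). Fibrillar chains hold 58.8% to 74.5% in the skin libraries, 2.20% to 3.53% in Epidermis WT and 12.2% to 36.6% in Epidermis KO.

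In whole skin, deletion of Adam17 was accompanied by lower collagen transcripts in most classes. Of 30 members tested 20 fell, 3 rose and 7 did not pass the threshold, where 45.5% of all genes tested were called (22.2% higher and 23.3% lower). The median log2 fold change was -1.15, against -0.0014 over all genes. KO and WT libraries did not overlap for 24 of the 30, and for 58.8% of all genes. Other tissue components moved as well. The summed TPM of 14 fibroblast genes that are not collagens was 672 to 1412 in Skin WT and 287 to 503 in Skin KO, with 10 of 14 lower and 0 higher. All 5 endothelial, all 5 adipocyte and all 5 skeletal muscle markers were lower too, with the skeletal muscle sum at 7458 to 51134 TPM in WT and 491 to 2466 in KO. Other lists were mixed, with 4 of 6 mural and smooth muscle, 4 of 5 Schwann cell and 1 of 4 macrophage markers lower and 0 higher. The 8 keratinocyte markers summed to 18734 to 26712 in WT and 31412 to 38135 in KO, with 2 higher and 2 lower. No marker of these lists was at 0 in either skin group. In bulk tissue, fewer cells of a type and less RNA per cell cannot be told apart, and the part of these shifts in the collagen result was not tested.

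The major fibrillar chains of the dermis were lower in 2 of 3 knockout libraries. Col1a1 (ENSMUSG00000001506.10, chromosome 11, 94936224 to 94953042, plus strand), the alpha 1 chain of type I collagen, went from 265, 239.6 and 318 CPM to 134, 160.2 and 333 in knockout skin. The first 2 Skin KO libraries lay below all WT libraries, and Skin KO 3 lay above them. The log2 fold change of Col1a1 was -0.40 (SE 0.34, adjusted p = 0.365). Col1a2, the partner chain, stood at 358, 343 and 459 CPM in WT and 164, 169 and 365 in KO, and its log2 fold change was -0.75 (SE 0.33, adjusted p = 0.106). Col3a1 (ENSMUSG00000026043.18, chromosome 1, 45311538 to 45349706, plus strand) stood at 786, 660.0 and 858 CPM in WT and 267, 383 and 717 in KO (log2 -0.77, SE 0.35, adjusted p = 0.113). In both genes Skin KO 3 lay within the WT range. Without Skin KO 3 all 3 genes were called lower, with log2 fold changes of -0.90 for Col1a1, -1.22 for Col1a2 and -1.25 for Col3a1 (adjusted p = 0.0193, 0.0085 and 0.0137). With the replicate number as a block Col1a2 (adjusted p = 0.0174) and Col3a1 (adjusted p = 0.0367) passed as well. The fibroblast marker sum of Skin KO 3, 503 TPM, was also the highest of the KO group, against 287 and 302.

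Type V chains, which join type I fibrils and limit their diameter, all fell. Col5a3 stood at 34.7, 41.4 and 52.5 CPM in WT and 4.35, 7.06 and 12.4 in KO, without overlap (log2 -2.44, SE 0.38, adjusted p = 0.00253). Col5a2 went from 69.0, 66.6 and 83.1 to 22.3, 28.3 and 49.2 CPM, again without overlap (log2 -1.14, SE 0.29, adjusted p = 0.0163). Col5a1 fell by 1.05 on the log2 scale (SE 0.32, adjusted p = 0.0324), with Skin KO 3 the highest KO library at 41.9 CPM and the lowest WT library at 49.1. Col27a1, a fibrillar collagen best known from cartilage, fell by 1.33 (SE 0.39, adjusted p = 0.0282) from 2.95 to 5.22 CPM in WT. Calls other than that of Col5a3 rested on single libraries. Col5a1 was not called without Skin KO 1, Skin KO 2, Skin WT 2 or Skin WT 3 (adjusted p 0.0689 to 0.106). Col5a2 was not called without Skin KO 2 or Skin WT 3 (0.0633 and 0.0563), nor Col27a1 without Skin KO 1, Skin KO 3, Skin WT 2 or Skin WT 3 (0.0701 to 0.0989). Col11a2, a minor fibrillar chain, was low throughout and did not pass (log2 -0.50, SE 0.50, adjusted p = 0.451).

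**Figure D3:**
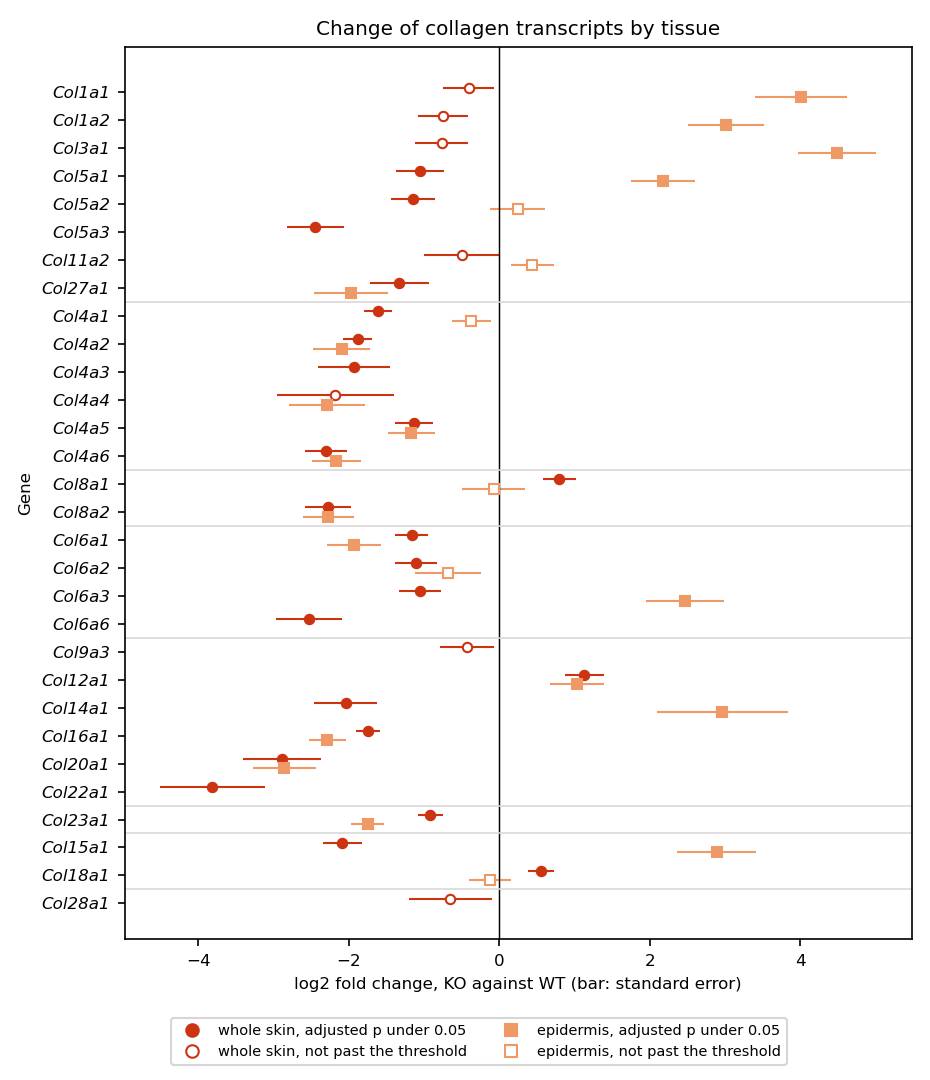
Log2 fold change of KO against WT (horizontal axis, with standard error bars) for each collagen (vertical axis) in whole skin (circles) and epidermis (squares), filled where the adjusted p was under 0.05. Type IV chains, Col8a2, Col16a1, Col20a1 and Col23a1 lie left of 0 in both tissues, whereas Col5a1, Col6a3, Col14a1 and Col15a1 lie left in skin and right in epidermis.

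Basement membrane collagens were lower in knockout skin across all 6 type IV chains, 5 of them past the threshold. In CPM no KO library overlapped a WT library for any of the 6, while per length (TPM) Col4a3 and Col4a4 overlapped. Of all genes tested in skin 23.3% were called lower and 58.8% did not overlap. Col4a1 (ENSMUSG00000031502.10, chromosome 8, 11198423 to 11312826, minus strand) and Col4a2, its neighbour on the opposite strand, code for the heterotrimer found in nearly all basement membranes. Col4a1 stood at 118, 126 and 172 CPM in Skin WT and 42.3, 42.3 and 53.0 in Skin KO (log2 -1.61, SE 0.19, adjusted p = 0.000887). Col4a2 went from 65.8, 77.0 and 98.0 to 22.0, 19.2 and 24.6 CPM (log2 -1.88, SE 0.19, adjusted p = 0.000548). In contrast to the type I chains, Skin KO 3 stayed far below the WT range in both. The X-linked pair Col4a5 and Col4a6 codes for chains that assemble into a heterotrimer in the basement membrane of the epidermis and of smooth muscle. Col4a6 (ENSMUSG00000031273.16, chromosome X, 141165403 to 141474076, minus strand) fell from 18.8, 33.2 and 32.5 to 6.92, 4.68 and 5.74 CPM (log2 -2.30, SE 0.28, adjusted p = 0.00103), and Col4a5 from 13.3, 18.6 and 24.3 to 7.37, 8.37 and 10.1 CPM (log2 -1.13, SE 0.25, adjusted p = 0.0101). Col4a3 and Col4a4, which serve mainly kidney and lung basement membranes, were low. Col4a3 fell by 1.93 (SE 0.48, adjusted p = 0.0159), a call lost without Skin KO 3 (adjusted p = 0.0507) or Skin WT 3 (0.0565). Col4a4 had 2.67, 5.43 and 7.13 CPM in WT and 2.21, 0.0768 and 1.07 in KO and did not pass (log2 -2.18, SE 0.78, adjusted p = 0.0555), while it passed without Skin KO 1 (adjusted p = 0.0316) or Skin WT 1 (0.0413).

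Type VI chains fell together in knockout skin. Col6a1 stood at 93.6, 88.6 and 117 CPM in WT and 31.7, 47.1 and 56.0 in KO (log2 -1.16, SE 0.22, adjusted p = 0.00587). Col6a2 stood at 97.5, 76.3 and 101 and 25.6, 52.6 and 51.2 CPM (log2 -1.10, SE 0.28, adjusted p = 0.0156), and Col6a3 at 45.9, 38.1 and 56.9 and 14.2, 24.9 and 29.4 (log2 -1.06, SE 0.28, adjusted p = 0.0195). The 3 chains assemble in equal parts, and their fold changes lay within 1 SE of each other. Without Skin WT 3 the calls of Col6a2 (adjusted p = 0.0531) and Col6a3 (0.0669) were lost, and that of Col6a3 also without Skin KO 2 (0.0537). Col6a6, a chain that can take the place of Col6a3, went from 4.07, 3.84 and 4.03 CPM to 0.295, 0.537 and 1.20 (log2 -2.53, SE 0.44, adjusted p = 0.00398), among the 3 largest falls in skin at a mean of 1 CPM or more.

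Fibril-associated collagens split. Col16a1, 4th per length in Skin WT, stood at 105, 118 and 105 CPM in WT and 35.8, 26.6 and 36.3 in KO. All KO libraries were below 40 CPM and all WT libraries above 100 (log2 -1.74, SE 0.16, adjusted p = 0.000408). Col14a1, which binds dermal fibrils, went from 45.2, 103 and 63.5 to 11.0, 13.97 and 26.9 CPM (log2 -2.04, SE 0.42, adjusted p = 0.00761). The largest falls in skin were those of the low-level chains Col22a1, from 2.10, 1.43 and 0.818 to 0.147, 0 and 0.133 CPM (log2 -3.81, SE 0.69, adjusted p = 0.00477), and Col20a1, from 1.68, 0.871 and 1.34 to 0.295, 0.0768 and 0.133 CPM (log2 -2.89, SE 0.52, adjusted p = 0.00461). They rest on 4 and 7 reads in the KO group against 72 and 64 in WT. Col9a3, a cartilage-type chain, stood at 1.68, 0.871 and 1.93 CPM in WT and 1.03, 1.23 and 1.07 in KO, which overlap, and did not pass (adjusted p = 0.361).

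Among the remaining classes, the multiplexin Col15a1, a basement membrane zone collagen prominent around vessels and muscle, went from 29.5, 31.3 and 43.9 to 5.67, 9.98 and 9.34 CPM (log2 -2.08, SE 0.26, adjusted p = 0.00116). The short-chain network collagen Col8a2 went from 16.6, 17.01 and 23.5 to 5.30, 2.46 and 4.07 CPM (log2 -2.28, SE 0.31, adjusted p = 0.00155). Col23a1 had the smallest change of the 20 that fell, from 36.5, 50.6 and 50.3 to 26.7, 23.7 and 23.0 CPM (log2 -0.92, SE 0.17, adjusted p = 0.00490). None of these 3 showed overlap between KO and WT. Col28a1, a collagen of peripheral nerve with von Willebrand factor type A domains, stood at 2.81, 1.998 and 2.57 CPM in WT and 2.36, 0.384 and 1.94 in KO, which overlap (adjusted p = 0.367).

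Against this direction, 3 collagens rose in knockout skin. Col12a1 (ENSMUSG00000032332.17, chromosome 9, 79598991 to 79718831, minus strand), a fibril-associated collagen of tissues under tension, went from 13.96, 16.5 and 26.2 CPM to 38.6, 37.2 and 49.6 (log2 1.13, SE 0.26, adjusted p = 0.0113). Col8a1, partner of Col8a2 in the short-chain network, went from 2.88, 2.71 and 3.10 to 4.05, 5.14 and 6.07 CPM (log2 0.80, SE 0.22, adjusted p = 0.0244). Col18a1, in the same structural class as Col15a1, went from 54.9, 56.1 and 72.0 to 74.6, 105 and 91.9 CPM (log2 0.55, SE 0.17, adjusted p = 0.0334). In all 3 the lowest KO library exceeded the highest WT library. The rise of Col12a1 was called whichever library was left out. The call of Col8a1 was lost without Skin KO 2, Skin KO 3, Skin WT 2 or Skin WT 3 (adjusted p 0.0553 to 0.0948), and that of Col18a1 without Skin KO 2, Skin KO 3, Skin WT 1 or Skin WT 2 (0.0759 to 0.131). With the share of Y-linked reads as a covariate 15 collagens were called in skin (1 higher and 14 lower). Over all 14906 genes tested that fit called 2159 higher and 1987 lower, against 3310 and 3470 in the main fit. Without both Skin KO libraries that held Y-linked reads, which leaves 1 KO library assumed to vary like the WT libraries, 15 were called (0 higher and 15 lower), and Col12a1 stood at log2 0.96 (adjusted p = 0.141).

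**Figure D4:**
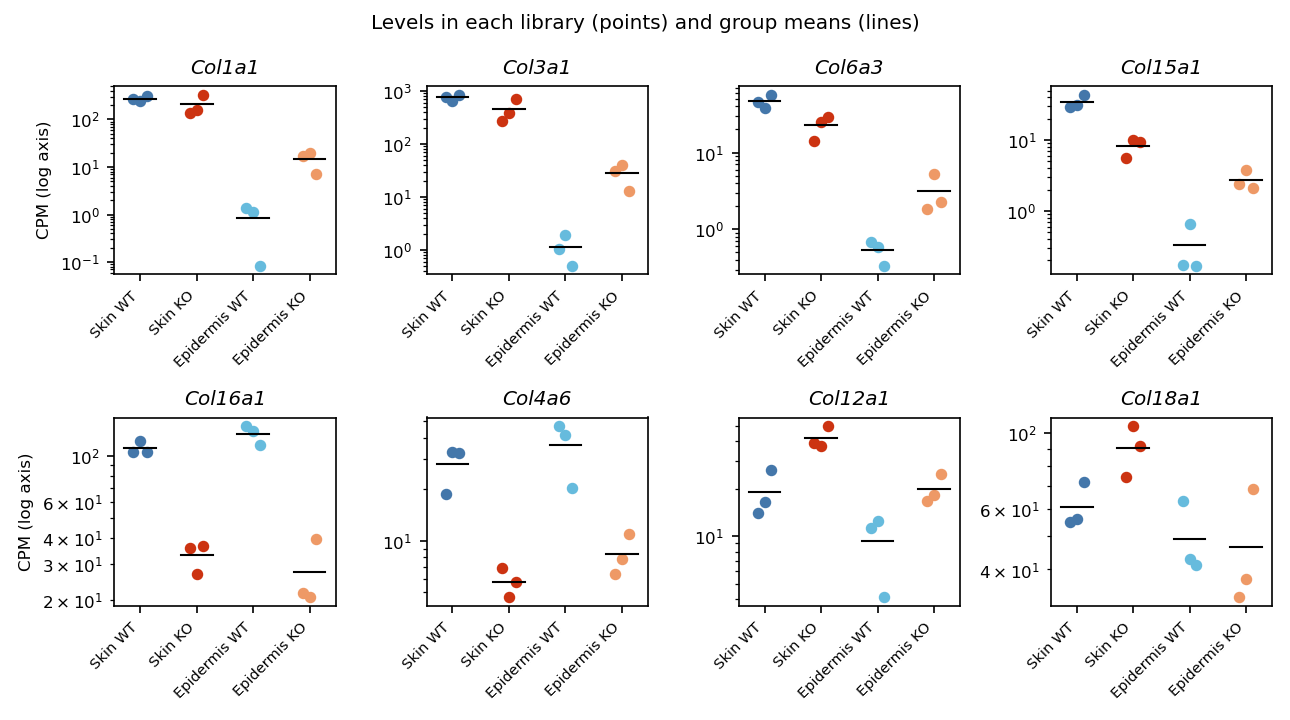
CPM (vertical axes, log scale) of 8 collagens in the 3 libraries of each group (points, in replicate order) with the group mean (lines). Col1a1, Col3a1, Col6a3 and Col15a1 are lowest in Epidermis WT and higher in Epidermis KO, Col16a1 and Col4a6 are lower in both KO groups, Col12a1 is higher in both, and Col18a1 is higher in Skin KO than in Skin WT.

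In epidermis several fibrillar chains rose. Of 24 collagens tested 8 rose, 10 fell and 6 did not pass, where 51.5% of all genes were called (26.2% higher and 25.3% lower). Groups did not overlap for 19 of the 24, and for 62.2% of all genes. The 8 that rose were Col1a1, Col1a2, Col3a1, Col5a1, Col6a3, Col12a1, Col14a1 and Col15a1. Col3a1 went from 1.02, 1.89 and 0.505 CPM to 30.8, 39.6 and 13.1 in the knockout (log2 4.49, SE 0.52, adjusted p = 0.000227). Col1a1 stood at 1.36, 1.11 and 0.0841 CPM in WT and 17.1, 19.7 and 7.03 in KO (log2 4.01, SE 0.61, adjusted p = 0.000846), and Col1a2 at 3.15, 1.44 and 1.18 and 18.9, 22.0 and 6.81 (log2 3.01, SE 0.50, adjusted p = 0.00141). Epidermis KO 3 was the lowest KO library in all 3 genes, still above every WT library. Even the highest knockout level of Col3a1 in epidermis, 39.6 CPM, was below the lowest in any skin library, 267 CPM.

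The other dermal chains that rose in knockout epidermis were low there too. Col15a1 went from 0.170, 0.653 and 0.168 CPM to 2.37, 3.78 and 2.13 (log2 2.89, SE 0.53, adjusted p = 0.00218). Col6a3 went from 0.681, 0.588 and 0.336 to 1.81, 5.30 and 2.27 CPM (log2 2.47, SE 0.52, adjusted p = 0.00432), and Col5a1 from 1.11, 0.719 and 0.505 to 2.29, 5.14 and 3.55 (log2 2.18, SE 0.43, adjusted p = 0.00302). None of the 3 overlapped between groups. Col14a1 went from 0.681, 0.457 and 0 to 1.73, 6.51 and 1.28 CPM (log2 2.96, SE 0.87, adjusted p = 0.0196), with Epidermis KO 2 far above the rest. Its call was lost without Epidermis KO 2 (log2 1.90, adjusted p = 0.0737), Epidermis WT 2 (0.0586) or Epidermis WT 3 (0.0514). Col12a1 went from 11.3, 12.4 and 4.12 to 16.6, 18.1 and 24.6 CPM (log2 1.03, SE 0.36, adjusted p = 0.0378), a call lost without Epidermis KO 2 (0.0596), Epidermis KO 3 (0.109) or Epidermis WT 1 (0.0584). All of these genes except Col12a1 were among the 20 lower in WT epidermis than in WT skin, a comparison that shares the Epidermis WT libraries.

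Markers of fibroblasts moved in the same direction as these chains in epidermis. Of 10 fibroblast genes tested, 9 were higher and 0 lower in Epidermis KO. Of all genes tested 26.2% were called higher and 25.3% lower. Genes near 0 in WT, such as Dpt and Pdgfra, could pass the expression filter through the KO group, so this count is a description. The sum of the 14 genes on the list was 34.2 to 47.0 TPM in Epidermis WT, with Twist2 at 0 reads, and 85.7 to 118 TPM in Epidermis KO, with reads for all 14. Without Thy1, Mmp2 and Fbln1, which hold most of the WT level, the sums were 5.22 to 8.07 and 16.8 to 38.0 TPM. The 5 endothelial markers summed to 0.26 to 0.31 TPM in WT, with Emcn at 0, and 0.83 to 2.89 in KO, and the 4 macrophage markers to 5.58 to 6.56 and 9.20 to 16.4 TPM. The part of these cell types in the rise of the dermal chains was not tested.

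Col16a1, the most abundant collagen of wild type epidermis per length, fell there, while Col18a1, at rank 2, did not pass. Col16a1 went from 139.8, 132 and 114 CPM to 21.4, 20.6 and 39.7 in the knockout (log2 -2.28, SE 0.25, adjusted p = 0.000180). No KO library came near the WT range. Its share of the collagen TPM was 11.9% to 23.9% in the KO libraries, and in Epidermis KO 1 and 2 the first rank per length had passed to Col3a1, in Epidermis KO 3 to Col18a1. Col23a1, the transmembrane collagen, went from 55.9, 62.7 and 49.8 to 19.6, 11.4 and 20.8 CPM (log2 -1.75, SE 0.22, adjusted p = 0.000321). Col20a1 went from 3.15, 3.20 and 4.63 to 0.237, 0.804 and 0.497 CPM (log2 -2.86, SE 0.42, adjusted p = 0.000738), the largest fall among the collagens called in epidermis. Col8a2 went from 12.01, 7.64 and 5.89 to 2.44, 1.53 and 1.49 CPM (log2 -2.27, SE 0.34, adjusted p = 0.000826), whereas its partner Col8a1 did not pass, at 2.13, 3.53 and 1.85 and 1.498, 2.01 and 3.90 CPM (log2 -0.07, SE 0.42, adjusted p = 0.896). Keratinocyte markers moved beside these genes, with 4 of 8 lower in knockout epidermis (Krt5, log2 -1.12, Itga6, -0.95, Itgb4, -1.28, and Lor, -4.36) and Krt1 higher (log2 2.70). Their sum was 28648 to 29610 TPM in WT and 31689 to 38813 in KO with none at 0, and their part in these falls was not tested.

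Of 5 type IV chains tested in epidermis 4 fell, where 25.3% of all genes tested were called lower. Col4a6 stood at 46.9, 41.5 and 20.4 CPM in WT and 6.39, 7.80 and 10.9 in KO (log2 -2.16, SE 0.33, adjusted p = 0.000859), and Col4a5 at 28.02, 23.1 and 12.7 and 7.02, 10.1 and 12.3 (log2 -1.17, SE 0.31, adjusted p = 0.0124). Col4a2 stood at 19.9, 19.2 and 14.1 in WT and 1.66, 5.22 and 5.96 in KO (log2 -2.09, SE 0.38, adjusted p = 0.00208). All 3 separated the groups fully. Col4a4 went from 1.79, 1.05 and 0.925 to 0.158, 0.402 and 0.213 CPM (log2 -2.29, SE 0.50, adjusted p = 0.00529), which rests on 48 reads in WT and 10 in KO. Col4a1 did not pass, at 14.5, 13.5 and 8.75 CPM in WT and 7.02, 9.97 and 12.3 in KO, which overlap (log2 -0.37, SE 0.26, adjusted p = 0.260, 95% interval from -0.88 to 0.14).

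Type VI chains took different directions in epidermis. Col6a1 went from 26.9, 18.7 and 14.3 to 2.92, 8.20 and 5.18 CPM (log2 -1.93, SE 0.36, adjusted p = 0.00245), while Col6a3 rose as given above. Col6a2 stood at 7.50, 5.29 and 2.44 CPM in WT and 2.84, 4.90 and 2.13 in KO and did not pass (log2 -0.68, SE 0.44, adjusted p = 0.226). Col27a1 went from 1.87, 5.03 and 3.53 to 0.473, 1.45 and 0.852 CPM (log2 -1.97, SE 0.49, adjusted p = 0.00941). Col5a2, Col11a2 and Col18a1 did not pass, at log2 0.24, 0.44 and -0.12 (adjusted p = 0.598, 0.223 and 0.735). For Col18a1 the CPM were 63.5, 42.8 and 41.1 in WT and 33.2, 37.5 and 68.8 in KO, with Epidermis KO 3 the highest of the 6. With the share of Y-linked reads as a covariate, which in epidermis runs close to genotype, 1 collagen was called in epidermis (Col6a3, higher), and 223 genes higher and 15 lower over the whole table. Of the 10 that had fallen, Col6a1, Col4a2, Col4a4, Col20a1 and Col27a1 changed sign in that fit.

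The genotype effects differed between the tissues for 9 of 30 collagens tested, all higher in epidermis than in skin. Of all genes tested 16.5% were called (10.1% higher and 6.36% lower). The 9 collagens were 5 fibrillar chains (Col1a1, Col1a2, Col3a1, Col5a1 and Col5a3) with Col4a1, Col6a3, Col14a1 and Col15a1. Col5a3 had missed the filter in epidermis, with 9 reads in WT and 35 in KO, and entered through its level in skin. For Col3a1 the difference of the log2 fold changes was 5.34 (SE 0.70, adjusted p = 0.00122), and for Col15a1 5.05 (SE 0.57, adjusted p = 0.000658). The 4 chains lower in skin and higher in epidermis by the separate tests were Col5a1, Col6a3, Col14a1 and Col15a1. All passed this test too, but it uses the same libraries and so adds no separate support. That combination of calls in the separate tests held for 1.1% of all genes tested in both tissues. In Epidermis WT the 4 chains had 30, 21, 15 and 14 reads, and they could pass the filter there through the KO group. The difference for Col4a1 was 1.32 (SE 0.34, adjusted p = 0.0243). This call was lost without Skin WT 3, Skin KO 2, Epidermis WT 3, Epidermis KO 2 or Epidermis KO 3 (adjusted p 0.0523 to 0.063). Col4a2, its pair, gave -0.13 (SE 0.46, adjusted p = 0.867, 95% interval from -1.03 to 0.76).

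Among the 24 members tested in both tissues, 9 fell in both (Col4a2, Col4a5, Col4a6, Col6a1, Col8a2, Col16a1, Col20a1, Col23a1 and Col27a1). Col12a1 was called higher in both, with overlap per length in epidermis. Of all genes tested in both tissues, 12.2% were called lower in both and 14.3% higher in both. None of these 10 collagens passed the test of a difference between tissues, which does not show that they changed alike. For Col12a1 the difference between tissues was -0.02 (95% interval from -1.02 to 0.99), for Col4a6 0.21 (from -0.72 to 1.14) and for Col16a1 -0.46 (from -1.09 to 0.17).

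The 250 bases upstream of the start site are shown for 3 collagens that fell in both tissues and 3 dermal chains that were higher in knockout epidermis, since each set moved together. They come from RefSeq (GRCm38.p6), where 33 of the 42 members matched with 36 start sites. Capitals mark matches on either strand to 4 motifs. The first is the core of the TATA box, with the letters TATAA. The next is the CCAAT box, spelled as it is named, followed by the GC box with the letters GGGCGG. The last is the AP-1 site, TGANTCA. All are written 5′ to 3′ on the strand of the gene.
Col16a1, chr4:130047590-130047839, plus strand: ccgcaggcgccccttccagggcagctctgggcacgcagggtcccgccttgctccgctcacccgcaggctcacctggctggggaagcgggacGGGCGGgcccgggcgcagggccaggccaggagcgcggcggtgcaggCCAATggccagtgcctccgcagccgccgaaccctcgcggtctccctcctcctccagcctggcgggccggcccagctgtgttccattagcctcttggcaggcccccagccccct
Col23a1, chr11:51289670-51289919, plus strand: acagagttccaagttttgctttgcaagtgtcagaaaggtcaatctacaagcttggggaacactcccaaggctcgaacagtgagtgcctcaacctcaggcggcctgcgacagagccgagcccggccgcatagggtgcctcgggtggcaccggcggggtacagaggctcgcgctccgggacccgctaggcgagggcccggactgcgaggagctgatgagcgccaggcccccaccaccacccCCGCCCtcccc
Col4a6, chrX:141474077-141474326, minus strand: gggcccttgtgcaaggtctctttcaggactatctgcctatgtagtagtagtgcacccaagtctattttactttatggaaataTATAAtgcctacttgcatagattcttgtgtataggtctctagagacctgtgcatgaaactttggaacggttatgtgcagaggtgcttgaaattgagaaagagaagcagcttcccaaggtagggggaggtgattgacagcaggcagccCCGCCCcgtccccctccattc
Col3a1, chr1:45311288-45311537, plus strand: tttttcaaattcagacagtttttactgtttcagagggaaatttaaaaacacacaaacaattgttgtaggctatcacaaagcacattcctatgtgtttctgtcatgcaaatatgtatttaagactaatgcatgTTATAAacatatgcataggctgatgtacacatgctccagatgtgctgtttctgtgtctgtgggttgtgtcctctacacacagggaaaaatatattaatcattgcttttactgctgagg
Col5a1, chr2:27886175-27886424, plus strand: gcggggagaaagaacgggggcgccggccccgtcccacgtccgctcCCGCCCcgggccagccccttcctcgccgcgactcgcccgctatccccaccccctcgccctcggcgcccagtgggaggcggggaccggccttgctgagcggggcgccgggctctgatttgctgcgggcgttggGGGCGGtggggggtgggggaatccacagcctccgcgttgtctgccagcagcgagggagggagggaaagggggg
Col15a1, chr4:47207762-47208011, plus strand: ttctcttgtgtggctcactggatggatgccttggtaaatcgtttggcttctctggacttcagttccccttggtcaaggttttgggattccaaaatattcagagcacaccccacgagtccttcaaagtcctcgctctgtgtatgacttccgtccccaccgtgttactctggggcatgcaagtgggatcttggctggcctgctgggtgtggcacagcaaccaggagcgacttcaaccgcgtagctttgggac

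The windows overlap no annotated exon in GENCODE release 21, apart from that of Col16a1, which holds part of an exon of the antisense gene Gm12963. Each of the 3 windows of genes that fell in both tissues holds a GC box, ending 154 bases before the start in Col16a1, 6 in Col23a1 and 16 in Col4a6. Of the others, Col5a1 holds 2 and Col3a1 and Col15a1 none. Col3a1 has TTATAA, which matches TATAA on both strands, 118 to 113 bases upstream. Over all 36 collagen start sites the GC box was present in 21 (58.3%), against 32.7% of 32851 promoters of the same length. The TATA box core was in 6 of 36 (22.8% of all promoters), the CCAAT box in 11 (33.9%) and the AP-1 site in 1 (6.75%). The letters describe the windows and were not tied to the fold changes.

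Summed over all 42 members, collagen transcripts were lower in both tissues. The sum was 604, 765 and 966 TPM in Skin WT and 269, 328 and 567 in Skin KO, a log2 difference of -1.004 in the means. In epidermis it was 125, 129.9 and 103 TPM in WT and 38.2, 54.7 and 62.8 in KO, a log2 difference of -1.20. Groups did not overlap in either tissue, and the two-sided exact permutation test gave p = 0.1 in both, the smallest that 3 libraries against 3 allow. Relative to the 14 fibroblast genes, the collagen sum was higher in knockout skin (0.938, 1.08 and 1.13 against 0.899, 0.604 and 0.684, log2 0.54, exact p = 0.1). With the geometric mean of the markers this log2 difference was 0.13 (exact p = 0.5), and without Thy1, Mmp2 and Fbln1 it was 0.88 (exact p = 0.1). In epidermis the ratio was lower in KO (0.445, 0.463 and 0.559 against 2.67, 3.02 and 3.003, log2 -2.57, exact p = 0.1). Here the log2 difference was -2.10 with the geometric mean and -3.40 without Thy1, Mmp2 and Fbln1 (exact p = 0.1 in both). Col16a1 held 49.1% to 65.7% of the collagen sum in Epidermis WT and 11.9% to 23.9% in Epidermis KO. Col1a1, Col1a2 and Col3a1 together held 0.652% to 1.11% and 8.65% to 32.7%. The ratio in epidermis is therefore not a measure of dermal collagen per fibroblast.

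**Figure D5:**
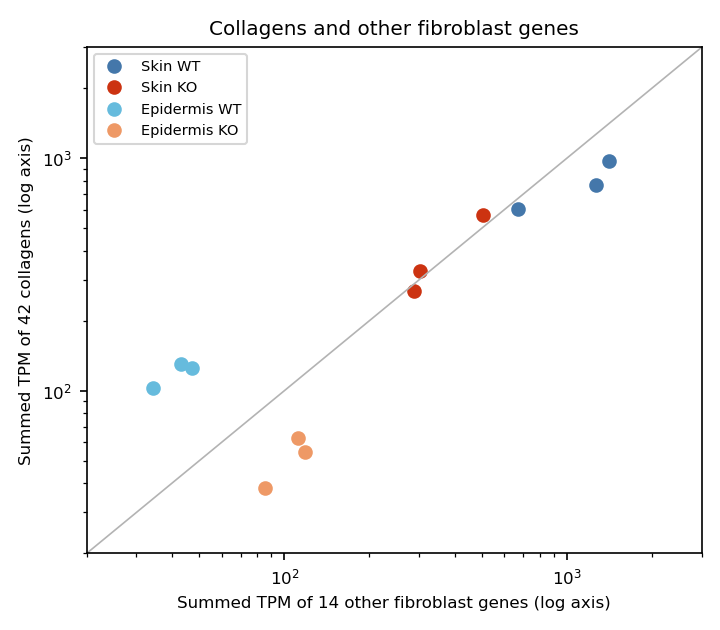
Summed TPM of the 42 collagens (vertical axis, log scale) against that of 14 other fibroblast genes (horizontal axis, log scale), 1 point per library, with the line of equal sums. Both sums are lower in Skin KO than in Skin WT, whereas Epidermis KO has a lower collagen sum (38.2 to 62.8 TPM) and a higher fibroblast sum (85.7 to 118 TPM) than Epidermis WT.

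Ratios within a library compared chains of the same collagen type, and Col3a1 with Col1a1, which belong to separate types. There were 8 such tests, with p values adjusted over them. In skin Col1a1 per Col1a2 was 0.661, 0.626 and 0.617 in WT and 0.734, 0.853 and 0.810 in KO, and Col3a1 per Col1a1 was 4.10, 3.87 and 3.51 in WT and 2.77, 3.48 and 3.07 in KO. Neither pair of groups overlapped (log2 0.33 and -0.30). Col4a1 per Col4a2 was 1.77, 1.60 and 1.71 in Skin WT and 1.87, 2.15 and 2.10 in Skin KO (log2 0.27). In epidermis the same ratio was 0.708, 0.681 and 0.602 in WT and 4.10, 1.86 and 1.10 in KO (log2 1.62). Col6a1 per Col6a2 in epidermis was 3.49, 3.57 and 5.98 in WT and 1.02, 1.65 and 2.40 in KO (log2 -1.40). These 5 tests gave exact permutation p = 0.1 and an adjusted p = 0.16, so none can pass in this design. Col5a1 per Col5a2, Col6a1 per Col6a2 and Col6a3 per Col6a1 overlapped between groups in skin (exact p = 0.9, 0.7 and 0.2). Other ratios in epidermis rest on fewer than 10 reads in a library and are not given.

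Procollagen is hydroxylated and glycosylated in the endoplasmic reticulum, passed on by chaperones, trimmed by propeptidases and crosslinked outside the cell. Of 15 hydroxylation and glycosylation genes tested in skin 3 rose and 6 fell, and of 13 tested in epidermis 3 rose and 7 fell. Beside this and the lists below, 45.5% of all genes tested were called in skin (22.2% higher and 23.3% lower). In epidermis 51.5% were called (26.2% higher and 25.3% lower). P4hb, the beta subunit of prolyl 4-hydroxylase and a general disulfide isomerase, rose from 419, 387 and 362 to 734, 952 and 814 CPM in skin (log2 1.08, SE 0.15, adjusted p = 0.00160), without overlap. P4ha3, an alpha subunit of the same enzyme, went from 0.0702, 0.154 and 0.175 to 1.47, 2.07 and 1.73 CPM (adjusted p = 0.000711), with 3 counts or fewer in each WT library. P3h4, a scaffold of the lysyl hydroxylation complex, went from 33.6, 38.5 and 28.9 to 13.7, 12.4 and 11.3 CPM in skin (log2 -1.44, adjusted p = 0.000750) and by log2 -1.20 in epidermis (adjusted p = 0.000130), where the prolyl 3-hydroxylase P3h2 (-1.25, adjusted p = 0.000278) and the lysyl hydroxylase Plod3 (-1.21, adjusted p = 0.000741) fell too.

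Of 9 chaperone and export genes tested in skin 2 rose and 3 fell, and of 8 tested in epidermis 6 rose and 2 fell. Creb3l1, a transcription factor of the secretory pathway, rose in both tissues, from 13.0, 11.0 and 14.7 to 29.7, 28.1 and 30.5 CPM in epidermis (log2 1.14, adjusted p = 0.000291) and by log2 0.86 in skin (adjusted p = 0.0101). Sec24d and Sec23a, coat proteins of export vesicles, rose in epidermis by log2 1.97 and 0.98 (adjusted p = 0.000457 and 0.000587). The prolyl isomerases Fkbp14 and Fkbp10, collagen folding factors, fell in skin (log2 -1.43 and -1.03, adjusted p = 0.00229 and 0.00730).

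Propeptide processing and crosslinking genes were 0 higher and 8 lower of 11 tested in skin, and 3 higher and 2 lower of 6 tested in epidermis. Adamts14, a procollagen N-propeptidase, gave the largest fall of this list in both tissues. It went from 17.8, 26.0 and 21.4 CPM down to 1.91, 1.69 and 1.80 in skin (log2 -3.60, SE 0.21, adjusted p = 8.53e-05), and from 52.6, 56.9 and 43.7 down to 0.867, 2.01 and 3.05 in epidermis (log2 -4.72, SE 0.32, adjusted p = 1.89e-05). Adamts2, the major dermal N-propeptidase, fell in skin (log2 -1.41, adjusted p = 0.00478) and rose in epidermis from 0.256, 0.0653 and 0.168 to 2.92, 4.26 and 2.34 CPM (log2 4.22, adjusted p = 0.000258), also from 3 counts or fewer in each WT library. Pcolce2, an enhancer of C-propeptide removal, fell in skin (log2 -2.43, adjusted p = 0.00524), and the lysyl oxidase Loxl2 rose in epidermis (log2 3.53, adjusted p = 0.000563). Both Adamts2 and Loxl2 differed between tissues in their genotype effect (adjusted p = 0.000236 and 0.00110).

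Collagen receptors were 0 higher and 3 lower of 8 tested in skin, and 1 higher and 2 lower of 7 tested in epidermis. Both shares lay below those of all genes, 45.5% in skin and 51.5% in epidermis. Ddr2, a receptor kinase for fibrillar collagen, fell in skin (log2 -1.18, adjusted p = 0.0392) and rose in epidermis from 5.45, 7.19 and 6.90 to 45.5, 52.8 and 44.1 CPM (log2 2.81, SE 0.16, adjusted p = 7.93e-06), with a difference between tissues of 4.07 (adjusted p = 0.000658). Mrc2, the endocytic collagen receptor, fell in both (log2 -0.96 and -0.77, adjusted p = 0.00307 and 0.0233), the integrin chain Itga11 fell in skin (log2 -2.17, adjusted p = 0.00906) and Itgb1 in epidermis (log2 -0.44, adjusted p = 0.0301).

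TGF-beta signalling drives collagen transcription in many settings. Of 13 genes of that list tested in each tissue, 5 rose and 5 fell in skin, and 4 rose and 2 fell in epidermis. The share called was above the 45.5% of all genes in skin and below the 51.5% in epidermis. The targets moved apart. Skil rose from 11.6, 15.6 and 17.5 to 56.0, 59.7 and 65.5 CPM in skin (log2 2.005, adjusted p = 0.000379) and by log2 1.68 in epidermis (adjusted p = 0.000138). Tgfbi, a secreted protein that binds collagen, went from 332, 411 and 387 to 172, 169 and 175 CPM in skin (log2 -1.14, adjusted p = 0.000846) and by log2 -1.88 in epidermis (adjusted p = 4.35e-05). Ccn2 went from 93.0, 97.8 and 80.8 to 22.6, 16.96 and 17.7 CPM in epidermis (log2 -2.29, adjusted p = 1.41e-05), and the ligand Tgfb2 fell in skin (log2 -1.51, adjusted p = 0.00189).

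In the list of collagen breakdown 1 rose and 3 fell of 7 tested in skin, and 2 rose and 3 fell of 6 tested in epidermis. Mmp13, an interstitial collagenase, had 0 CPM in all 6 WT libraries, 12.2, 3.92 and 8.67 CPM in Skin KO and 3.71, 5.14 and 0.781 in Epidermis KO (adjusted p = 0.00173 and 0.00314). Mmp2, a gelatinase that is also on the fibroblast list, rose in epidermis from 25.5, 17.6 and 20.6 to 87.1, 67.0 and 64.7 CPM (log2 1.74, adjusted p = 0.000110). Pepd, the peptidase that recycles proline from collagen fragments, fell in both tissues (log2 -0.99 and -0.95, adjusted p = 0.00159 and 0.00211). Over the 6 lists together 38 of 62 genes tested were called in skin (11 higher and 27 lower), 61.3% against 45.5% of all genes. In epidermis 36 of 52 were called (19 higher and 17 lower), 69.2% against 51.5%, with Mrc2 counted once although it is on 2 lists. Without both Skin KO libraries that held Y-linked reads 22 were called in skin (6 higher and 16 lower). With the Y-linked share as a covariate 3 were called in epidermis (2 higher and 1 lower), and 21 (13 higher and 8 lower) with a minimum of 2-fold.

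The 12 members tested in neither genotype comparison were Col2a1, Col9a1, Col9a2, Col10a1, Col11a1 and Col24a1, which belong to cartilage, bone or developing matrix, with Col6a4, Col6a5, Col13a1, Col19a1, Col25a1 and Col26a1. None exceeded 1.19 CPM in any library. The transmembrane collagen Col13a1 was at 0.421, 0.307 and 0.350 CPM in Skin WT and at 0.589, 0.461 and 0.2002 in the knockout, with overlap. Cartilage markers were near 0 as well, with a summed TPM of at most 0.91 in any library and Matn3 at 0 reads in all 4 groups. Col11a1 had 27 reads in Skin WT and 0 in Epidermis WT, and 9 in Epidermis KO. Col26a1 had 17, 1 and 7 reads in wild type and 0, 1 and 1 in knockout skin, which overlap, with most WT reads in Skin WT 1. Of members tested in skin alone, Col6a6 had 14 reads in wild type and 2 in knockout epidermis, 7.38-fold lower per total read (95% interval 1.70 to 66.9, counting error only).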

How the data were processed

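RNA-seq libraries made from poly(A) RNA with a strand-marking kit were deposited for 12 samples in 4 groups of 3. Per the submitters' processing notes the tools were bcl2fastq 2.17, STAR 2.5.1 and RSEM with the mm10 build. Which annotation was used, and whether counting used strand, is not given in the sources used here, so reads of overlapping genes on opposite strands, such as the starts of Col4a1 and Col4a2, may not be separated. The deposited tables hold RSEM expected counts (estimated counts, 8.42% to 9.98% of values not whole) and TPM per gene, per the file headers.

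Expected counts were rounded. Each comparison was fitted on its own groups in edgeR 4.0.16 (TMM scaling, filterByExpr, quasi-likelihood test, Benjamini-Hochberg threshold 0.05), in R 4.3.3. The difference between tissues used all 12 libraries. SE is the log2 fold change divided by the square root of F. Intervals are 1.96 SE on each side and, with counts under 4 in a group, exact counting intervals. Sums and ratios used TPM with exact two-sided permutation tests (scipy 1.17.1). Printed CPM use TMM factors over all 12 libraries. Depth sets a floor of 3 counts, and intervals on reads cover counting error only. Symbols and positions come from GENCODE mouse release 21, which matched 39106 of 47643 IDs with their version, 47224 without it and left 419 without a symbol, which hold at most 0.0612% of counts. The fit was tested on simulated data with 200 changed genes.

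The members and all gene lists were chosen with earlier results of these data known. Values per library are given for the 4 collagens of each class with the highest mean TPM, the 3 largest rises and falls in each tissue among called collagens with a mean of 1 CPM or more, and up to 3 genes of each pathway list with the smallest adjusted p. Same-numbered WT and KO libraries deviated together in skin (r across genes 0.338, 0.357 and 0.205, against -0.445 to 0.113 for different numbers). They did not in epidermis (0.0748, 0.145 and -0.0528). Differently numbered libraries of different tissues reached similar values, such as 0.328 for Skin WT 3 with Epidermis WT 2. The labels give a replicate number but no pairing, so the main fits are unpaired and the number served as a block in an alternative only. Alternatives were DESeq2 1.42.0, limma 3.58.1, other scalings and filters, a replicate block, the share of Y-linked reads as a covariate, a joint fit of the 4 groups, a 2-fold minimum and leaving out each library. Leaving out Thy1, Mmp2 and Fbln1, or both Skin KO libraries with Y-linked reads, was chosen after seeing the data.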

Additional observations from a re-analysis of the deposited data

Results flagged for a closer look

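For 9 of 30 collagens tested the genotype effect in epidermis differed from that in skin. The test was that of the difference itself (edgeR, all 12 libraries, adjusted p under 0.05). Over all genes tested it called 16.5% (10.1% higher and 6.36% lower). The differences of the log2 fold changes, epidermis minus skin, were 5.34 for Col3a1, 4.49 for Col1a1 and 3.84 for Col1a2, the chains of the main dermal fibrils. They were 3.31 for Col5a1 and 4.39 for Col5a3, chains of type V collagen, and 3.60 for Col6a3 of the type VI filament. Col5a3 missed the expression filter in epidermis (9 reads in WT and 35 in KO) and entered this test through its level in skin. Col14a1, associated with fibrils, gave 5.07, and Col15a1 of the basement membrane zone 5.05. For Col4a1, a general basement membrane chain, it was 1.32, and this call was lost when any of 5 libraries was left out. The fibroblast markers moved in the same direction, with 12 of 14 called higher in this test and 0 lower, and their part in the result was not tested.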

How the results depend on the processing

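The collagens called in skin (23) numbered 15 with the share of Y-linked reads as a covariate and 15 without both Skin KO libraries that held such reads, and 16 to 23 when 1 library was left out. Over all genes in skin the Y-linked covariate left 2159 higher and 1987 lower, against 3310 and 3470 in the main fit. In epidermis (18) this covariate left 1 collagen, and in the pathway lists 3 of 36. A minimum of 2-fold left 21 of these 36, and the skin lists (38) gave 22 without both Skin KO libraries. Counts of calls under all other settings that were run stayed within 1.5 times of the main counts. With the replicate block 25 collagens were called in skin, 18 in epidermis, 19 between WT tissues and 9 for the difference. In skin, where same-numbered WT and KO libraries deviated together, the block added Col1a2 and Col3a1 and lost no collagen call. Between WT tissues, where libraries share only a number, Col9a3 (adjusted p = 0.0554) and Col4a3 (0.0506) were lost.

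Signs turned in epidermis with the Y-linked covariate for Col6a1 (log2 0.86), Col6a2 (0.98), Col4a1 (0.53), Col4a2 (0.55), Col4a4 (0.30), Col8a1 (0.50), Col18a1 (0.088), Col20a1 (0.25) and Col27a1 (1.0104). The cause was not tested. When single libraries were left out, signs turned only among uncalled values. In epidermis Col18a1 ranged from -0.52 to 0.088, Col8a1 from -0.57 to 0.27 and Col5a2 from -0.078 to 0.55. In skin the log2 change of Col5a1 per Col5a2 ranged from -0.057 to 0.15 and that of Col6a1 per Col6a2 from -0.15 to 0.080. With 3 libraries a group the exact test cannot go below 0.1. Chains with fewer than 3 counts in a library, under 0.179 to 0.246 CPM, cannot be told from absence at this depth.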
